A study of Mus musculus with 15 samples.

Results

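The 10 genes described here are gastric-like genes of the classical subtype of pancreatic ductal adenocarcinoma (PDAC): Vsig1, Slc26a9, Muc1, Tff1, Tff2, Agr2, Lgals4, Ctse, Gata6 and Hnf4a, out of 55291 genes in each table. They were picked by name, with their culture results already known, because Vsig1, Muc1 and Slc26a9 were far lower in treated cultures. Their culture values against the control cells are therefore given as a description, without a test. Bulk RNA sequencing covered 15 libraries in 5 groups of 3, all from HY19636, a single PDAC line from a genetically engineered C57BL/6 mouse (p53 L/+, with Cre driven by the pancreatic gene Ptf1a). The cultures grew in DMEM with serum and were control cells, cells given DON at 25 µM for 24 h, or cells kept without glutamine (Gln) for 24 h. DON is a Gln analog that blocks Gln-using enzymes, and DRP-104 is a prodrug of it. The tumors were HY19636 cells injected into the pancreas of female C57BL/6J mice 8 to 10 weeks old, which then received vehicle or DRP-104. For this model the methods give DRP-104 at 3 mg/kg and collection on day 21. The host kept its immune, stromal and normal pancreatic cells, which remain in the tumor RNA.

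Human and mouse PDAC is commonly sorted by expression into a classical and a basal-like subtype. Classical tumors keep an endodermal epithelial program in which the transcription factors GATA6 and HNF4A are central. Many of them express genes of the stomach surface, where mucins, trefoil peptides and the proteins that fold and bind them form a protective gel. In these libraries 7 of the 10 genes could be followed in culture and all 10 in tumors.

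Gene positions are those of the deposited annotation, which matched GENCODE M21 on GRCm38 for 8 of the 10 genes. Vsig1 (ENSMUSG00000031430) lies at chrX:140907608-140939472, Muc1 (ENSMUSG00000042784) at chr3:89229057-89233381 and Slc26a9 (ENSMUSG00000042268) at chr1:131744022-131771504, all on the plus strand. Ctse (ENSMUSG00000004552) lies on the same chromosome, at chr1:131638306-131675505. Tff1 (ENSMUSG00000024032) and Tff2 (ENSMUSG00000024028) are both on the minus strand of chromosome 17. Lgals4 (ENSMUSG00000053964) is on chromosome 7, Agr2 (ENSMUSG00000020581) on 12, Hnf4a (ENSMUSG00000017950) on 2 and Gata6 (ENSMUSG00000005836) on 18.

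The promoters of Vsig1, Muc1 and Slc26a9, the 3 genes for which the set was picked, are shown to let their sequences be compared. Each is 300 bases of the plus strand from RefSeq (GRCm38.p6), from 250 before to 50 after the annotated start, at chrX:140907358-140907657, chr3:89228806-89229105 and chr1:131743772-131744071. Capitals mark a GATA motif, AGATAA or TGATAA on either strand, so that TTATCT is AGATAA on the opposite strand. Only the Slc26a9 window has one.
Vsig1: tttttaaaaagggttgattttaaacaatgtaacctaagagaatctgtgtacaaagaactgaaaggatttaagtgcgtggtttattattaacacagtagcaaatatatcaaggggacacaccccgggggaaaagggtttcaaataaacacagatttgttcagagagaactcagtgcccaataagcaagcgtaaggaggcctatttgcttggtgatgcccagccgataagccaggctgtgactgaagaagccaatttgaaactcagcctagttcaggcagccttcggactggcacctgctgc
Muc1: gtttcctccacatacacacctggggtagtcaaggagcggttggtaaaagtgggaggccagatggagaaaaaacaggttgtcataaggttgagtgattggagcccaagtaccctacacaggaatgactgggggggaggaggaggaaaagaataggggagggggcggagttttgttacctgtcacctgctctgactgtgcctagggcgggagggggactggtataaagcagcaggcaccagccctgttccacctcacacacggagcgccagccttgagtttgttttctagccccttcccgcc
Slc26a9: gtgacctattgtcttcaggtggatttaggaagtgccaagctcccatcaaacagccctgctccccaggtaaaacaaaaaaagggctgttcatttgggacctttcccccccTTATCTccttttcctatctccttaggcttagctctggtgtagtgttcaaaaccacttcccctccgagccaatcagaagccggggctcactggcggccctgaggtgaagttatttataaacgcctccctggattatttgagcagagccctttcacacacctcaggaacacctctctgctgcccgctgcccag

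RefSeq windows were found for 6 of the 10 genes, 7 windows in all since Hnf4a has a pair. Of these 7, 2 held the GATA motif, 1 of Slc26a9 and 1 of Hnf4a, against 18.6% of 32851 promoter windows of the same length. An HNF4 motif, CAAAGTCCA on either strand, was in 0 of the 7 windows and in 0.475% of all windows. The letters say nothing of binding, and no window of Vsig1 or Muc1 held either motif.

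Libraries held 25.2 to 48.2 M (mega) reads in culture and 16.3 to 20.7 M in tumors, as recovered from the deposited normalized counts, in which the reads of each library were scaled by 1 size factor. Islet markers had 0 reads in the 9 cultures, and the summed fibroblast markers reached at most 37.9 RPM (reads per 1000000 reads of the library) there but 1020 to 4320 RPM in tumors. Leukocyte markers summed to 27.3 to 28.5 RPM on DON against 2.24 to 2.86 RPM in control cells, nearly all from Cd68, with Ptprc, Adgre1 and Cd3e at 0 reads on DON, and their part in the results was not tested. One tumor stood apart. DRP-104 tumor 3 held the highest value of the 6 tumors for 27.5% of 15454 genes and the lowest for 26.3%. Its summed leukocyte markers were also the highest, at 195 RPM against 54.8 to 111 RPM in the other tumors. Results in the normalized counts of the tumors are given with and without it.

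The surface proteins were the clearest in culture. Vsig1 encodes a junctional protein of the immunoglobulin family that is typical of gastric epithelium. Its normalized counts were 6519, 6467 and 6495 in the control cells and 325, 344 and 282 on DON. The DON cultures thus held 0.0488 of the control mean, and the groups were far apart, with a log2 change of -4.36 (SE 0.101, n = 3 per group). Without Gln, in a separately normalized table with the same control libraries, Vsig1 stood at 1051, 1111 and 989 against 6144, 6108 and 6264, a log2 fold change of -2.56 (SE 0.0831).

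Muc1, a transmembrane mucin of the apical surface, had normalized counts of 13580.4, 14004 and 11448 in control cells. On DON it held 2596, 2603 and 2607, a difference of -2.32 on the log2 scale (SE 0.0935). Without Gln it held 1184, 1121 and 1069 against 12799, 13227 and 11041 in controls, and the log2 fold change was -3.45 (SE 0.0913). All treated cultures were below all controls, and here the Gln-free cells were the lower of the treated groups.

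Lgals4, a galectin that binds glycans of the gut surface, followed the order of Muc1. Control cells held 14890, 14019.7 and 11303 normalized counts, and DON cells 3074, 3755 and 3192, a log2 fold change of -2.0 (SE 0.113). In Gln-free cells it was 1438, 1028 and 1192 against 14032, 13243 and 10901, or -3.39 on the log2 scale (SE 0.126). No treated library reached any control library.

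Slc26a9, an anion transporter of the gastric surface epithelium, was almost unread in treated cells. The control libraries held 627, 714 and 1155 reads and the DON libraries 8, 2 and 22, so that DON cells had 1.41% of the control level (95% exact interval 0.963 to 2.0%). The Gln-free libraries held 0, 0 and 2 reads, or 0.0961% of the control level (0.0116 to 0.347%). These intervals cover counting error only, and the fitted log2 fold changes of -6.60 on DON and -9.06 without Gln depend on the added value of 1.

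Ctse, cathepsin E, is an aspartic protease abundant in stomach surface cells. Its normalized counts were 7176, 8239.99 and 6015 in control cells and 1756, 1477 and 1628 on DON, or -2.13 on the log2 scale (SE 0.115). Without Gln they were 1048, 1240.0 and 1244 against 6763, 7783 and 5801, a log2 fold change of -2.52 (SE 0.114). The treated groups lay close to each other and well below the controls.

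**Figure D1:**
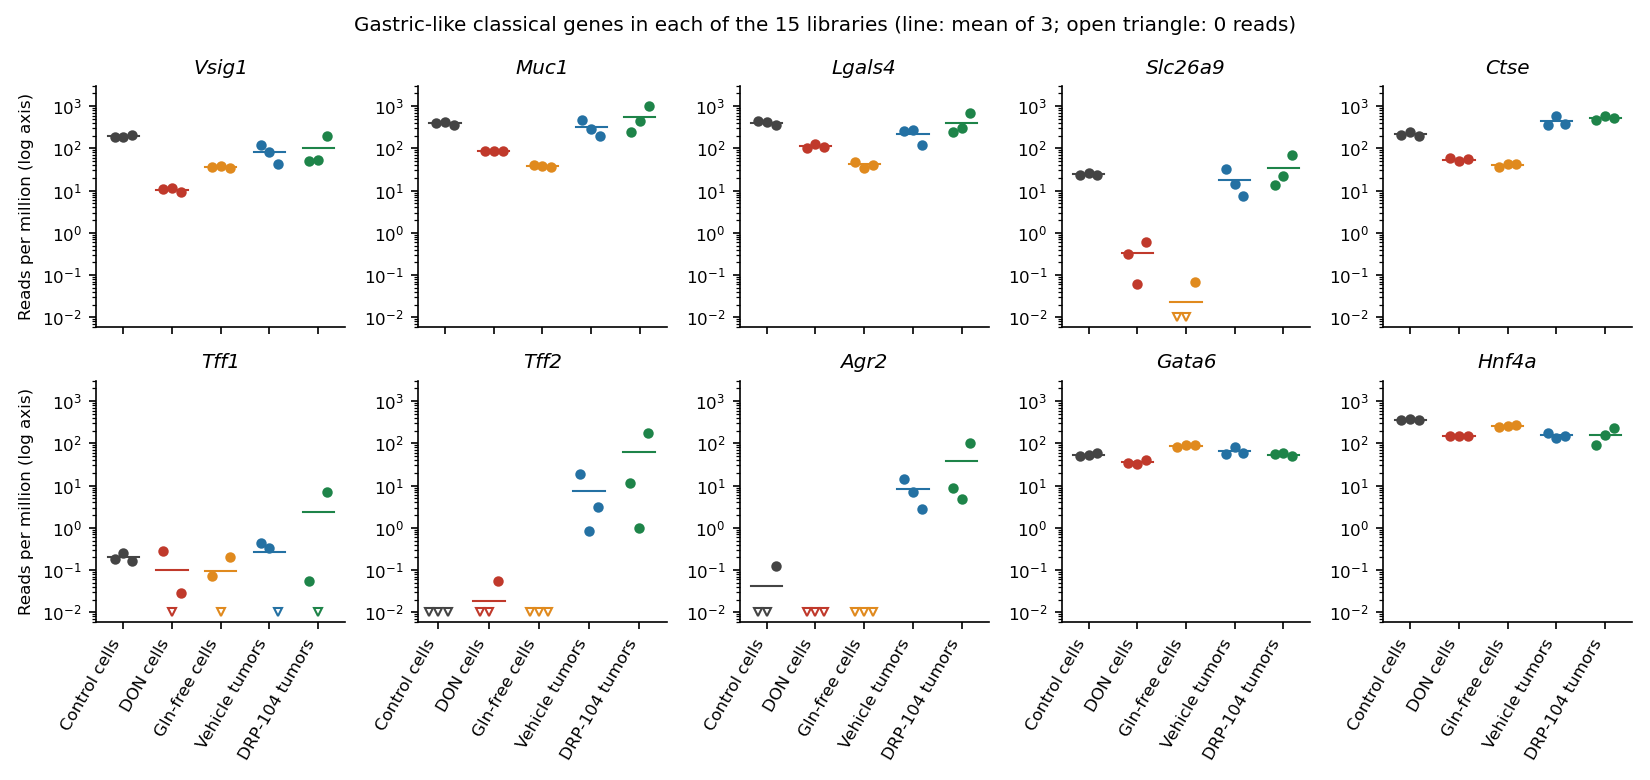
Levels in RPM (log axis) of the 10 genes in each of the 15 libraries, by group, with the mean as a line and libraries with 0 reads as open triangles. Vsig1 lay at 9.49 to 11.4 RPM on DON against 190 to 208 RPM in control cells, while Tff2 and Agr2 were read almost only in tumors.

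The secreted and secretory genes Tff1, Tff2 and Agr2 could not be compared in culture. Tff1 and Tff2 are trefoil peptides released with gastric mucus, and Agr2 is a protein disulfide isomerase that helps mucins fold. Tff1 had 5, 7 and 8 reads in the control libraries, 7, 0 and 1 on DON, and 2, 0 and 6 without Gln. Tff2 had no reads in the control and Gln-free libraries and 2 in a single DON library. Agr2 had 0, 0 and 6 reads in the control libraries and none in the treated ones. All 3 were under the filter of a mean normalized count of 10, and a difference was not detectable at this depth.

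The transcription factors differed least from control. Hnf4a, a nuclear receptor that maintains hepatic and gut identity, held 11981, 12775 and 11046 normalized counts in control cells. On DON it held 4457, 4457 and 4522, so the log2 fold change was -1.41 (SE 0.0863). Without Gln it was 7214, 7569 and 8009 against 11291, 12067 and 10653, a log2 fold change of -0.58 (SE 0.0828). The treated cultures were again below all controls, but the Gln-free cells were the nearer to them.

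Gata6, a zinc finger factor of the classical subtype, was the exception among the genes read in culture. On DON it held 1028, 1002 and 1216 normalized counts against 1698, 1805 and 1850.47 among the controls, so the log2 fold change was -0.73 (SE 0.105). Without Gln it held 2446, 2620.42 and 2657 against 1599.97, 1705 and 1785, a log2 fold change of 0.60 (SE 0.0867). Every Gln-free library was above every control library, whereas every DON library was below.

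Counted together, 7 of the 7 genes above the filter were below all control libraries on DON, where 36.6% of 13556 genes were. Without Gln 6 were below and 1 was above, where 37.2% and 36.4% of 13390 genes were. With Benjamini-Hochberg adjusted p-values from limma, a linear model across all genes, 34.7% of all genes tested were called lower on DON and 34.9% without Gln at a threshold of 0.05, and 33.3% and 34.5% higher. These counts follow from how the genes were chosen and are given only beside that background. The median log2 fold change of the 7 genes was -2.13 on DON and -2.56 without Gln, against 0.02 and 0.01 over all genes tested. The sum of the 10 genes was 1560 to 1710 RPM in control cells, 440 to 454 RPM on DON and 489 to 524 RPM without Gln.

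**Figure D2:**
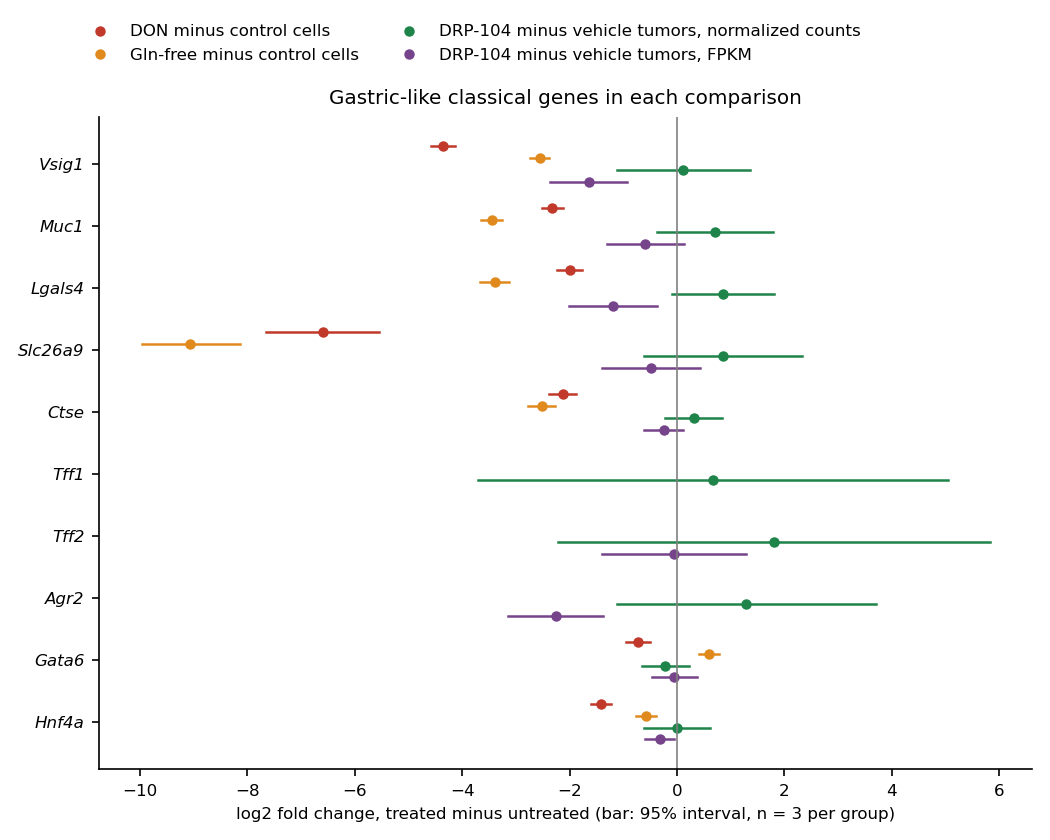
Log2 fold change (treated minus untreated, point) with its 95% interval (bar, n = 3 per group) for each gene above the filter. Shown are both culture comparisons and the tumors in normalized counts and in FPKM. Culture points lay to the left of 0 apart from Gata6 without Gln, at 0.60, and the normalized counts and FPKM of the tumors lay on opposite sides of 0 for 7 genes.

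How the treated cultures differed from each other was not the stated ground for picking the genes. Both treated groups entered the known results, however, so the p-values of this comparison are a description and no independent test. DON and Gln-free libraries were scaled together and compared directly, with no control library in the fit. Of the 6 genes above the filter, all 6 passed limma at an adjusted p under 0.05, 3 lower and 3 higher on DON, where 68.8% of 13383 genes passed, 35% lower and 33.8% higher. With so high a share of all genes passing, the calls are not particular to these genes. The groups did not overlap for any of the 6, as for 72.2% of all genes. The smallest exact permutation p that 3 against 3 libraries allow is 0.1, two-sided, and each of the 6 genes reached it.

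Lower on DON than without Gln were Vsig1, Gata6 and Hnf4a. Vsig1 held 319, 339 and 277 scaled counts on DON and 1063, 1124 and 1001 without Gln, a log2 difference of -1.77 (SE 0.104, limma adjusted p = 1.93e-09). Gata6 differed by -1.30 (SE 0.0811, limma adjusted p = 3.79e-09) and Hnf4a by -0.80 (SE 0.056, limma adjusted p = 1.17e-08). For all 3 genes every DON library was below every Gln-free library.

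Higher on DON were Muc1, Lgals4 and Ctse. Muc1 held 2549, 2566 and 2562 scaled counts on DON and 1198, 1135 and 1082 without Gln, a log2 difference of 1.17 (SE 0.0671, limma adjusted p = 1.55e-09). Lgals4 differed by 1.42 (SE 0.107, limma adjusted p = 2.63e-08) and Ctse by 0.42 (SE 0.0882, limma adjusted p = 0.000651). Here every DON library was above every Gln-free library. Slc26a9, with 32 reads in all on DON and 2 without Gln, was under the filter.

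The genes also differed in order per length. In control cells the mean level was 291 RPM per kilobase (RPKM) for Lgals4, 175 for Muc1, 101 for Ctse, 82.5 for Hnf4a, 72.5 for Vsig1, 16.9 for Gata6, 5.16 for Slc26a9 and 0.424 for Tff1, and each of these neighbours lay apart in all libraries. On DON Vsig1 was below Gata6, at 3.9 against 11.3 RPKM. Without Gln Hnf4a was first, at 59.6 RPKM, followed by Lgals4 at 30.1 and Gata6 at 27.6 RPKM, which overlapped. Gene length, and so any RPKM, is the deposited one.

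Vsig1, Muc1 and Slc26a9 were also matched with other genes by the mean absolute difference of their log2 changes from control over the 6 treated libraries, among 10364 genes with a mean of at least 100 in the control cells. The pattern nearest to Vsig1 was that of Tspan13 (mean absolute difference 0.182 log2 units), then Ndrg2 (0.308) and Nuf2 (0.322). Nearest to Muc1 were Nrn1 (0.172), Cdca3 (0.186) and Pfkl (0.211). Slc26a9 had no close match: Tmem252 was nearest at 1.72, then Nr0b2 at 1.97 and Ccdc184 at 2.11.

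Other genes of the classical subtype, 28 in a list chosen with these results known, were mostly lower in culture too. On DON 11 of the 12 above the filter fell (limma, adjusted p under 0.05) and 1 did not pass, with a median log2 fold change of -2.98, beside 34.7% of all genes called lower. Without Gln 10 fell and 1 rose, with a median of -1.60, beside 34.9% called lower and 34.5% higher. Since this list and those that follow were chosen with the culture results known, their counts are no independent evidence of a direction. Erbb3, a receptor tyrosine kinase of the EGFR family, fell by 3.45 on DON and by 2.68 without Gln on the log2 scale. Tmprss2, a serine protease of the cell surface, fell by 3.17 and 2.15, with normalized counts of 5121 in control cells and 571 on DON. Gprc5a, an orphan receptor, rose without Gln by 1.33 on the log2 scale, from 10264 to 25729 normalized counts. In the direct comparison 7 of 9 classical genes were lower and 1 was higher on DON (limma, adjusted p under 0.05). Over all genes 35% were lower and 33.8% higher there. The largest difference among the classical genes was that of Gprc5a at -2.29.

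Genes of gastric surface and gland cells, 12 in all, were mixed. On DON 4 of 7 fell and 1 rose, beside 34.7% lower and 33.3% higher over all genes. Without Gln 4 fell and 2 rose, beside 34.9% and 34.5% of all genes. Muc5ac, the main secreted mucin of the gastric surface, fell by 2.97 on DON and by 5.2 without Gln on the log2 scale, from 272 and 259 to 38.9 and 6.89 normalized counts. Anxa10, an annexin of the stomach, rose on DON by 0.46 on the log2 scale. Cldn18, a tight junction claudin, rose without Gln by 0.60, and Sox2, a transcription factor of the foregut, by 1.19.

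Transcription factors of the endoderm were mostly lower on DON than without Gln, as were Gata6 and Hnf4a. On DON 9 of the 15 above the filter fell and 4 rose, beside 34.7% lower and 33.3% higher over all genes. Without Gln 7 fell and 7 rose, beside 34.9% and 34.5% of all genes. Elf3, an epithelial ETS factor, fell by 3.72 and 2.21 on the log2 scale, Pdx1, the master factor of the pancreas, by 3.08 and 1.95, and Cdx2, a factor of the intestine, by 2.68 and 0.54. Foxa1, a pioneer factor, rose by 1.48 on DON and by 2.11 without Gln. Foxa2, another pioneer factor, fell by 0.25 on DON and rose by 0.46 without Gln. In the direct comparison 13 of 15 factors were lower on DON and 1, Sox9, was higher, at 1.01 on the log2 scale. Over all genes 35% were lower and 33.8% higher there.

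**Figure D3:**
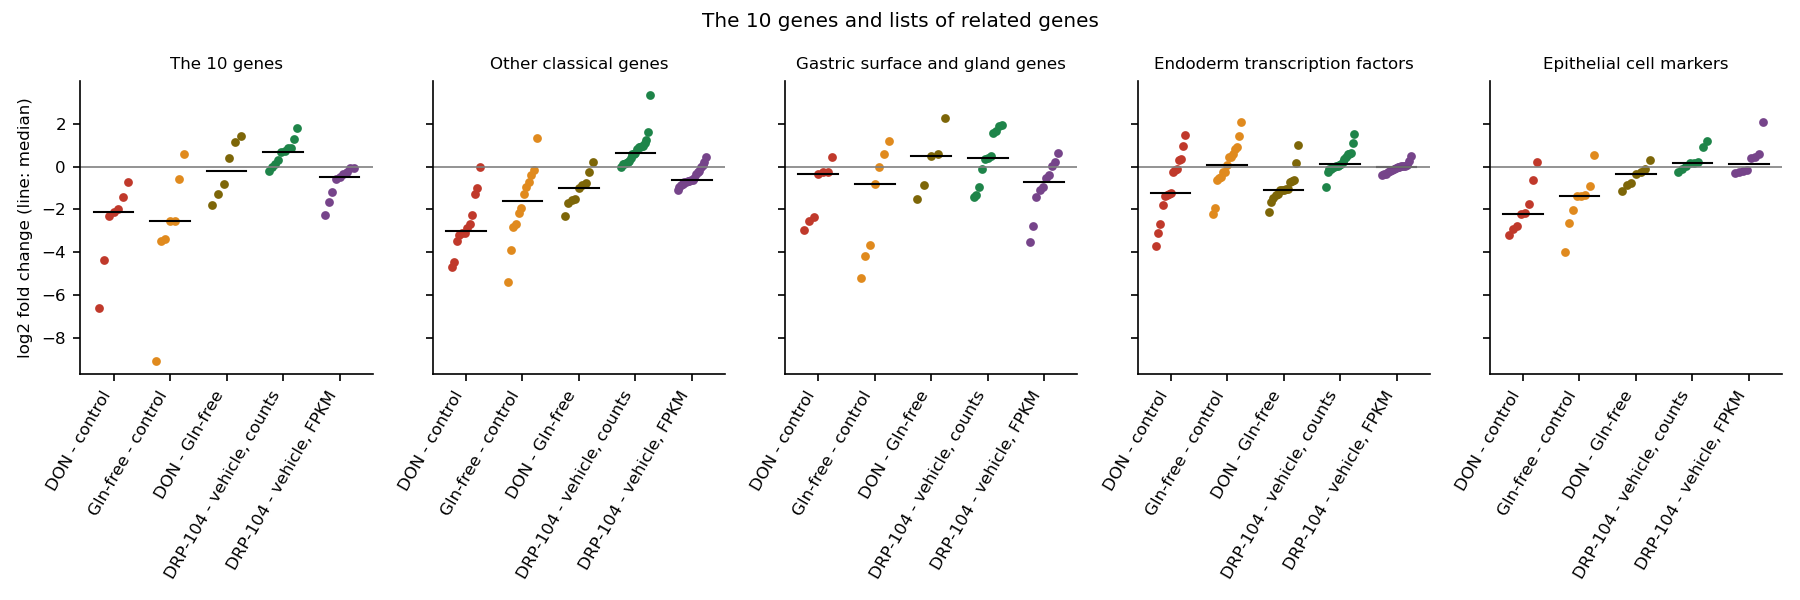
Log2 fold change of each gene tested (points) and the median of each list (line), for the 10 genes and 4 lists of related genes in 5 comparisons. The endoderm factors lay mostly below 0 in DON minus Gln-free cells, with a median of -1.09, and the general epithelial markers were also below 0 against control, with a median of -2.19 on DON.

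General epithelial markers, from a list of 8, were lower as well. On DON 7 of 8 fell and 1 did not pass, with a median log2 fold change of -2.19, next to -2.13 for the gastric-like genes. Without Gln 7 of 8 fell, with a median of -1.38. Genes of the basal-like subtype followed in part: 6 of 11 fell and 2 rose on DON, and 8 of 10 fell and 2 rose without Gln. Beside both lists, 34.7% of all genes fell and 33.3% rose on DON, and 34.9% fell and 34.5% rose without Gln. Krt7, a keratin of duct cells, fell by 3.23 on DON on the log2 scale, and Areg, a ligand of the EGF receptor, rose by 2.82 without Gln. The epithelial markers summed to 10500 to 12500 RPM in control cells, 3670 to 3890 RPM on DON and 4550 to 5070 RPM without Gln, and their part in the lower gastric-like genes was not tested.

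In tumors the question was whether DRP-104 changed the same genes. None of the 10 was called in the normalized counts (limma, lowest adjusted p = 0.916), where 0% of 15454 genes were called and 5.01% had an unadjusted p under 0.05, as did 0 of the 10. For every one of the 10 the groups overlapped, while 10.6% of all genes had no overlap. In bulk tumors fewer cells of a type and less RNA per cell cannot be told apart.

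Vsig1 had normalized counts of 2166, 1577 and 819 in vehicle tumors 1, 2 and 3 and 1006, 978 and 3640.3 in DRP-104 tumors. The DRP-104 group held both lower and higher tumors than the vehicle group, and the log2 fold change was 0.12 (95% interval -1.12 to 1.36). Without DRP-104 tumor 3 the change was -0.51.

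Muc1 had 8453, 5386 and 3692 normalized counts in vehicle tumors and 4904, 8322 and 17952 in DRP-104 tumors, a log2 fold change of 0.71 (95% interval -0.37 to 1.78). Lgals4 had 4696, 5372 and 2284 in vehicle tumors and 4858, 5679.94 and 12329.8 in DRP-104 tumors, or 0.85 on the log2 scale (-0.10 to 1.81). Slc26a9 had 593, 275 and 142 against 269, 411 and 1245, or 0.86 (-0.62 to 2.33). For these genes DRP-104 tumor 3 was again the highest, and without it the changes were 0.21, 0.44 and 0.22.

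Ctse was even across tumors, at 6312, 11339.9 and 7061 normalized counts with vehicle and 9125, 11073 and 9606 with DRP-104, a log2 fold change of 0.31 (95% interval -0.22 to 0.84). Gata6 stood at 1007, 1537 and 1096 with vehicle and 1096, 1087 and 902 with DRP-104, or -0.22 (-0.66 to 0.22). Hnf4a stood at 3231, 2584 and 2785 with vehicle and 1861, 3009.54 and 4139 with DRP-104, and its log2 fold change was 0.00 (-0.62 to 0.62). The intervals of all 3 lie within 1 log2 unit of no change, and without DRP-104 tumor 3 the changes were 0.34, -0.13 and -0.27.

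The secreted genes varied most between tumors. Tff2 had 342, 15.8 and 57.8 normalized counts with vehicle and 231, 18.5 and 3190.29 with DRP-104, so that the highest tumor held 202 times the lowest. Agr2 had 264, 134 and 53.9 with vehicle and 171, 89.97 and 1811 with DRP-104. Tff1 was almost absent, with 9, 7 and 0 reads in vehicle tumors and 1, 0 and 134 reads in DRP-104 tumors. Their log2 fold changes of 1.80, 1.29 and 0.67 had SEs of 1.75, 1.05 and 1.90 and rest on a single tumor: without DRP-104 tumor 3 Tff2 changed by -0.05 and Agr2 by 0.00, and Tff1 was under the filter.

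DRP-104 tumor 3 held the highest value for 8 of the 10 genes, all but Ctse and Gata6, and the lowest for Gata6. Its level exceeded that of the next highest tumor 1.68 times for Vsig1, 2.12 times for Muc1, 6.87 times for Agr2, 9.32 times for Tff2 and 16.3 times for Tff1. Some other gastric genes were high there too: Muc5ac reached 5683 normalized counts, Gkn1 5548 and Gkn2 7954. The next highest tumor, vehicle tumor 1, held 3442, 911 and 1571. Sox2 was lowest in DRP-104 tumor 3, at 59.8 normalized counts. Over all 6 tumors the log2 fold change of Muc5ac was -0.93 (SE 1.62). Of the 11 gastric surface and gland genes tested, 7 had a positive and 4 a negative change, with a median of 0.42, and 0 passed limma. Without DRP-104 tumor 3, 4 were positive and 7 negative, with a median of -0.15. Over the 10 genes the log2 fold change was positive for 8 and negative for 2, with a median of 0.69, and without DRP-104 tumor 3 it was positive for 5 and negative for 4 of 9, with a median of 0.00. The 5 markers of chief and parietal cells of the stomach gland summed to 1.57 RPM in DRP-104 tumor 3, the highest of the 6 tumors, against 0.486 to 1.39 RPM in the others, with Atp4b, Cblif and Chia1 at 0 reads and all of it from Bhlha15 and Atp4a. The part of these markers, of its leukocyte markers and of the fibroblast markers, which summed to 1020 to 1640 RPM with DRP-104 and 2070 to 4320 RPM with vehicle, was not tested.

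**Figure D4:**
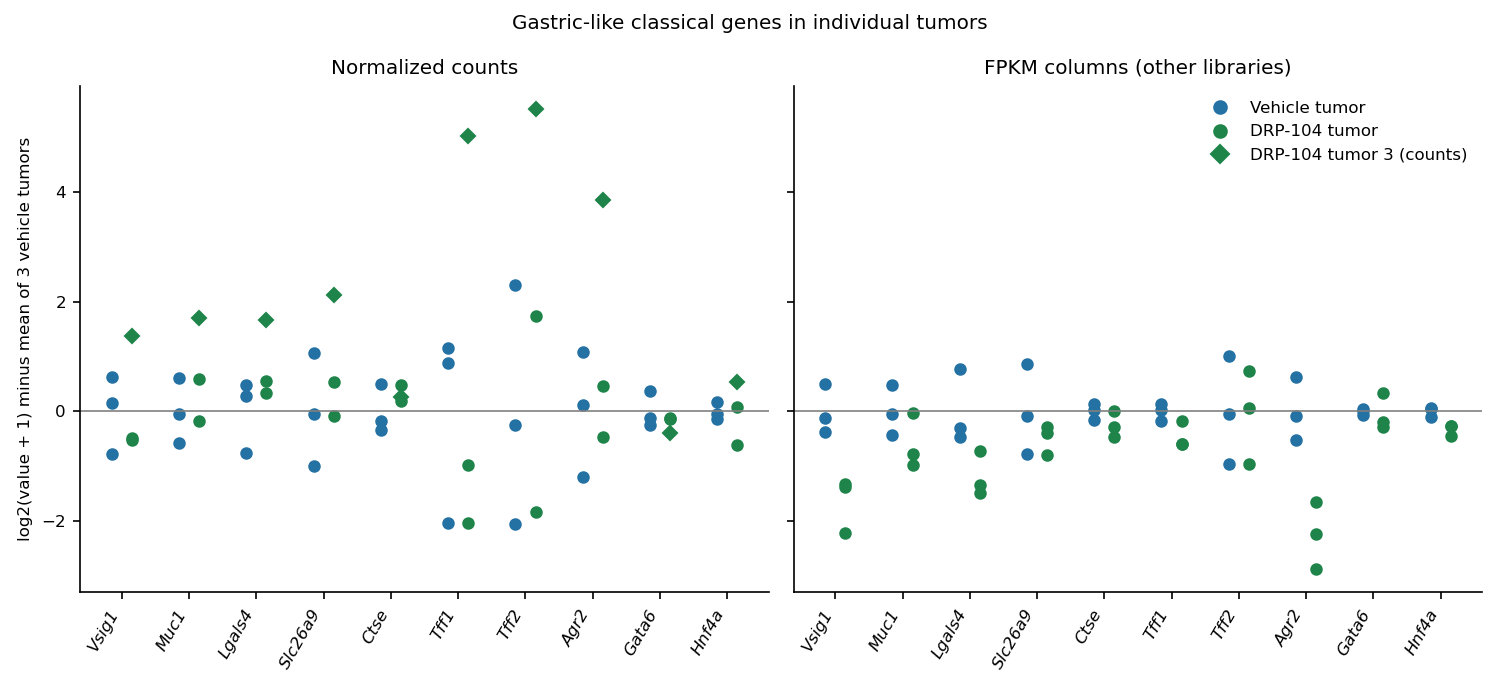
Log2(value + 1) of each gene in each tumor minus the mean of the 3 vehicle tumors of the same table, for normalized counts (left, with DRP-104 tumor 3 as diamonds) and for FPKM (right). In the counts DRP-104 tumor 3 stands highest for 8 genes, and in the FPKM the 3 DRP-104 libraries lie below all vehicle libraries for Vsig1, Agr2, Lgals4, Hnf4a and Tff1.

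A second deposited set of tumor values, FPKM (fragments scaled by gene length and library size), also has 3 columns per group, called libraries here. Their deviations from gene means correlated by at most 0.441 with any column of the normalized counts, and no depth is stated. Whether they come from the same tumors or from others is not known, and the paper names 3 tumors per group. They are therefore not counted as further tumors. There 9 of the 10 genes passed a filter of a mean of 0.5 FPKM, and all 9 had a lower mean log2 value with DRP-104, opposite to most of the normalized counts. None passed (limma, lowest adjusted p = 0.245, with 0% of 14183 genes called). At an unadjusted p under 0.05 there were 4 of 9, beside 7.61% of all genes, and 4 of 9 had every DRP-104 library below every vehicle library, beside 9.65%.

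Vsig1 had 42.1, 65.6 and 34.9 FPKM with vehicle and 9.14, 17.0 and 17.6 FPKM with DRP-104, a log2 fold change of -1.64 (SE 0.305, limma adjusted p = 0.292). Agr2 had 18.04, 30.3 and 13.1 FPKM with vehicle and 1.76, 3.29 and 5.47 with DRP-104, or -2.26 (SE 0.379, limma adjusted p = 0.245). Lgals4 had 195, 410 and 173 FPKM with vehicle and 84.7, 93.98 and 145 with DRP-104, or -1.19 (SE 0.349, limma adjusted p = 0.581). Hnf4a was 43.5 to 48.98 FPKM with vehicle and 34.4 to 38.9 FPKM with DRP-104, or -0.32 (SE 0.115, limma adjusted p = 0.623). In these 4 genes the groups did not overlap, whereas Muc1 (-0.59), Slc26a9 (-0.49), Ctse (-0.25), Gata6 (-0.05) and Tff2 (-0.05) overlapped.

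Leaving out any 1 of the 6 FPKM libraries left the log2 fold change of Vsig1 between -1.83 and -1.36 and that of Agr2 between -2.56 and -1.95. Gkn1 and Gkn2, gastrokines made by gastric surface cells, were below all vehicle libraries as well, at -2.78 and -3.50 on the log2 scale, and did not pass either (limma adjusted p = 0.152 for both). The 6 islet markers summed to 323 to 1200 FPKM with DRP-104 against 13.7 to 231 FPKM with vehicle. The 7 acinar markers summed to 604 to 3500 FPKM with DRP-104 against 168 to 955 FPKM, which overlapped, and 0 of 6 islet and 0 of 7 acinar markers passed limma. No islet or acinar marker was at 0 in all libraries of a group, and their part in the values of the gastric-like genes was not tested. The epithelial markers summed to 2710 to 4020 FPKM with DRP-104 and 3570 to 4050 FPKM with vehicle.

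Related genes also differed in sign between both sets. In the normalized counts 18 of 19 other classical genes had a positive log2 fold change, with a median of 0.66, and in the FPKM 3 of 18 did, with a median of -0.63, and 0 of them passed limma in either. Without DRP-104 tumor 3 the normalized counts gave 11 of 17 positive, with a median of 0.05. Endoderm factors had medians of 0.11 (0.11 also without that tumor) and -0.03, with 0 of 18 and 0 of 16 called. DESeq2 on the recovered reads called 71 of 28582 genes, 29 higher and 42 lower with DRP-104. Among the lists of epithelial genes it called Tmem45b, a transmembrane protein, at 1.79 (DESeq2 adjusted p = 0.00873), Erbb3 at 1.22 (DESeq2 adjusted p = 0.0419), the mucin Muc4 at 2.64 (DESeq2 adjusted p = 0.0106) and Ehf, an epithelial ETS factor, at 1.43 (DESeq2 adjusted p = 0.0126), all higher with DRP-104. Among the fibroblast markers it called the collagens Col1a1 at -1.21 (DESeq2 adjusted p = 0.0051), Col1a2 at -1.12 (DESeq2 adjusted p = 0.0275) and Col3a1 at -1.50 (DESeq2 adjusted p = 0.00278), all lower. DESeq2 gave a result for 9 of the 10 gastric-like genes, all but Tff1, and called none of them. Limma called none of the listed genes, with a limma adjusted p = 0.916 each for Tmem45b, Muc4 and Ehf. DESeq2 was not run without DRP-104 tumor 3. The list of 7 mucins with Muc4 summed to 63.1 RPM in that tumor. It summed to 4.59 and 8.38 RPM in the other DRP-104 tumors and 2.59 to 4.27 RPM with vehicle.

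Levels of untreated tumors and untreated cultures are set side by side only, since their tables were normalized separately and tumors hold host cells. As RPM, 41.8% of 13151 genes were higher in all vehicle tumors than in all control cultures and 23.9% were lower. Tff2 and Agr2 stood out. Tff2 had 460 reads in the vehicle tumors and 0 in the control cells, 260-fold more as RPM than a floor of 3 reads over the group. Of the 460 reads 383 came from vehicle tumor 1, at 19.0 RPM against 0.822 and 3.05 RPM in the others. Without that tumor the value was 65.2-fold. The floor takes reads as independent, but even read numbers made up 69.6 to 72.7% of low values in culture, so both values may be too high. Agr2 was at 14.7, 6.96 and 2.85 RPM in the vehicle tumors, while its 6 control reads were all in 1 library, at 0.125 RPM. The ratio of the Agr2 means was 196, or 118 to 260.0 when 1 vehicle tumor was left out. That range leaves out no control library, and without the library holding the 6 reads no ratio could be formed. With reads pooled by group the ratio was 140, with a counting interval of 63.8 to 383. This interval also takes reads as independent and may be too narrow. Ctse was above all controls as well, at 438 RPM against 215 RPM, 2.04 times as much.

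Vsig1, Hnf4a and Lgals4 were lower in all vehicle tumors than in all control cultures. The mean levels were 81.9 against 196 RPM for Vsig1, 154 against 360.0 RPM for Hnf4a and 221 against 403 RPM for Lgals4, or 0.417, 0.427 and 0.547 of the culture level. Muc1, Slc26a9, Gata6 and Tff1 overlapped, at 0.804, 0.747, 1.2 and 1.29 times the culture level, with 16 and 20 reads in all behind the value of Tff1. The 8 general epithelial markers had a median ratio of 1.85, from 0.298 to 18.9, so they give no single scale for the share of tumor cells.

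Per length the order in vehicle tumors was Ctse at 206 RPKM, Lgals4 at 159, Muc1 at 141, Hnf4a at 35.2, Vsig1 at 30.3, Gata6 at 20.2, Tff2 at 13.1, Agr2 at 8.99, Slc26a9 at 3.85 and Tff1 at 0.548 RPKM. Ranges of neighbours overlapped except between Muc1 and Hnf4a and between Slc26a9 and Tff1. In the means Tff2 and Agr2 stood above Slc26a9, which led both in culture, but their ranges overlapped, and in vehicle tumor 2 Tff2 was at 1.41 RPKM and Slc26a9 at 3.02 RPKM. Vsig1 was 4.44 times and Muc1 4.86 times as high in the highest of the 6 tumors as in the lowest, whereas Ctse and Gata6 differed 1.80 and 1.70 times. For Vsig1 and Muc1 that highest tumor was DRP-104 tumor 3. Among the 3 vehicle tumors alone the spread was 2.64 times for Vsig1, 2.29 for Muc1, 1.80 for Ctse and 1.53 for Gata6.

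**Figure D5:**
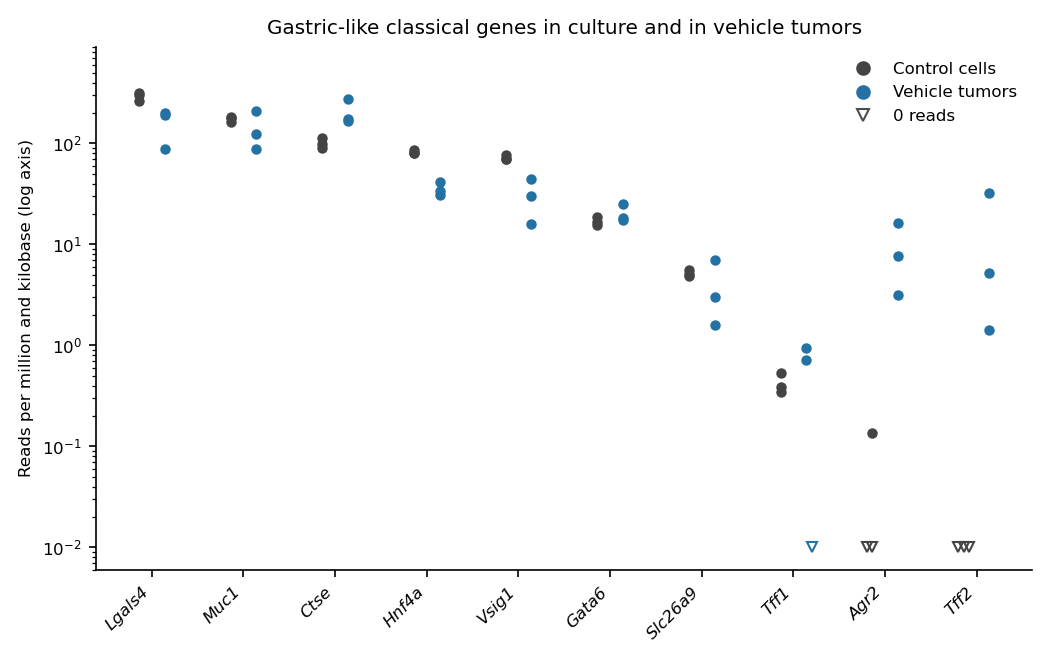
Levels in RPKM (log axis) of the 10 genes in the 3 control cultures and the 3 vehicle tumors, in the order of the control means, with 0 reads as open triangles. Tff2 and Agr2 were at 13.1 and 8.99 RPKM in vehicle tumors and near 0 in culture, while Vsig1 and Hnf4a were lower in every tumor.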

How the data were processed

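HY19636 cultures and tumors were sequenced as bulk RNA, 3 libraries per group. The deposited signal is gene counts that the authors divided by 1 DESeq2 size factor per library, with a separate table for each comparison. The authors also deposited FPKM for tumors, which were assigned to their group only. Their submitters' processing notes name HISAT2, STAR 2.5, CASAVA, DESeq2 and GRCm39, but 72.2% of 34490 genes of the FPKM table matched by ID had the coordinates of GENCODE M21 (GRCm38). The counting tool and use of strand are not given in the sources used here. The authors' fold changes and p-values in the tables were not used. Control columns of the culture tables carry vehicle names and were taken as control cells by group.

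Whole reads were recovered from each value (tolerance 0.0051, at least 99.9946% of values), and the controls of the culture tables held equal reads in 55291 of 55291 genes. Even read numbers made up 69.6 to 72.7% of the values from 1 to 20 in culture libraries, so reads there may not be independent and counting intervals may be too narrow. Log2(value + 1) of genes with a mean of at least 10 (FPKM: 0.5) was tested with limma 3.58.1 in R 4.3.3, with the 6 libraries of each comparison, Benjamini-Hochberg adjustment and a threshold of 0.05. For the direct comparison, DON and Gln-free reads received joint size factors (median of ratios). The tests were tried on simulated data first. Nothing says that cultures were grown separately, so p-values there measure only the spread between these samples.

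The genes and lists were chosen with earlier results of these data known. Named beside the 10 genes are, for each list and comparison, the 2 largest rises and falls among list genes with a mean of at least 100, endoderm factors above that mean, and the 3 nearest patterns to Vsig1, Muc1 and Slc26a9. Alternatives were edgeR 4.0.16, DESeq2 1.42.0, quantile normalization, other filters and pseudocounts, a replicate block and leaving out each library. Leaving out FPKM libraries, leaving out vehicle tumors for the Tff2 and Agr2 levels, and giving the lists without DRP-104 tumor 3 were added after the data were seen. Tables were handled in Python 3.11 with pandas 2.3.3. An allele of the line and a gene of the lists are not reported here.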

Additional observations from a re-analysis of the deposited data

How the results depend on the processing

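The calls of the direct culture comparison kept their direction for all 6 genes under 14 alternatives, and counts over all genes ranged from 7706 to 9660 on DON, 7916 to 9683 without Gln and 7844 to 9312 between the treated cultures. Quantile normalization moved the median of all genes on DON to 0.127 on the log2 scale, and Muc1 to -2.17 there. In tumors DESeq2 on recovered reads called 71 genes where limma and edgeR called 0 (775 and 844 at an unadjusted p under 0.05). The cause was not tested. With limma on the normalized counts, leaving out any 1 tumor left 0 calls. In the FPKM columns leaving out 1 library left 0 or 1 call over all genes. DESeq2 was not run with a tumor left out.

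Log2 fold changes that turned sign in tumors did so mainly in the FPKM columns, which gave -2.26 for Agr2, -0.25 for Ctse, -1.19 for Lgals4, -0.59 for Muc1, -0.49 for Slc26a9, -0.05 for Tff2 and -1.64 for Vsig1. Hnf4a was 0.05 with quantile normalization and 0.07 with edgeR and with DESeq2. Leaving out 1 tumor at a time gave ranges of -0.27 to 0.31 for Hnf4a, -0.34 to 2.02 for Tff1, -0.05 to 3.63 for Tff2 and -0.51 to 0.44 for Vsig1. In the FPKM columns Gata6 ranged from -0.24 to 0.07 and Tff2 from -0.53 to 0.46. For tumor against culture levels, dividing by the epithelial markers gave log2 ratios of -0.51 for Tff1 and -0.63 for Gata6, and Tff1 ranged from -0.26 to 0.96 when 1 library was left out.

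With the replicate number as a block, 0 genes were called in tumors and 9237 between DON and Gln-free cells (9207 without). Same-numbered libraries did not deviate together (correlations of -0.365 to 0.038 in tumors and -0.028 to 0.083 in cultures). The numbers thus gave no sign of pairing, which correlations among 3 libraries per group cannot exclude. No block could be fitted against the control cells, whose columns carry no number of their own. At 3 tumors per group, changes within the intervals given could not be detected.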
